A study of Mus musculus with 6 samples.

Results

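The transcripts described here come from 44 genes of the lysosome, namely membrane proteins, hydrolases with their helper proteins, and the transcription factors TFEB, TFE3 and MITF. They were chosen by gene symbol from the 21959 genes of the deposited table, and all 44 were found. RNA was counted in 6 libraries from wild-type mouse cells that carry the label HL-1, a line established from atrial cardiomyocytes. All cells underwent oxygen-glucose deprivation and reoxygenation (OGD/R), given as 4 h of hypoxia without glucose and 24 h of reoxygenation in complete medium, after culture in a medium that contains norepinephrine. For 3 libraries (OGD/R 1 to 3) this was the only treatment. For the other 3 (phillyrin 1 to 3), phillyrin, a glycoside of the lignan class, was added at 50 µg/mL, starting 8 h ahead of the injury and lasting 16 h alongside it. Neither uninjured cells nor cells given a vehicle were analysed here, so the comparison asks only which lysosomal transcripts differed when phillyrin was added to OGD/R, and phillyrin cannot be told apart from its solvent.

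Lysosomes are acidic organelles in which hydrolases break down proteins, glycans, glycosaminoglycans and lipids delivered by endocytosis and autophagy. Most soluble hydrolases are tagged with mannose 6-phosphate in the Golgi and carried to the lysosome by receptors, while heavily glycosylated membrane proteins such as LAMP1 and LAMP2 line its inner face. TFEB, TFE3 and MITF bind an E-box motif, the CLEAR element, in promoters of many of these genes. They are held in the cytosol when mTORC1 phosphorylates them at the lysosomal surface, and the phosphatase calcineurin releases them. In heart and skeletal muscle, inherited loss of LAMP2 (Danon disease) or of the glycogen-degrading enzyme encoded by Gaa (Pompe disease) causes cardiomyopathy.

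Library totals lay between 14761317 and 22123648 counts. The label of the cells was not borne out by most atrial markers. Of 17 markers of atrial muscle 13 were below 0.5 CPM (read counts scaled by TMM-adjusted library size) in every library. Myh6, Sln, Actn2, Mybpc3 and Hand2 had 0 counts, which allows up to 0.0269 CPM over the 111513800 counts of all 6 libraries. The summed level of these markers lay between 151.0 and 151.9 CPM in OGD/R and between 180.4 and 195.8 CPM with phillyrin, of which Tnnt2 alone was 116 ± 1.79 and 153 ± 9.34 CPM (SD, n = 3 each, called higher). Gata4 (30.8 ± 2.21 and 28.3 ± 1.01 CPM), Nkx2-5 (2.75 ± 0.599 and 2.94 ± 0.744) and Myl4 (1.38 ± 0.179 and 1.90 ± 0.508, SD, n = 3 each) were above 0.5 CPM in every library and not called. Of 10 skeletal myoblast markers 2 were below 0.5 CPM in every library, a smaller share than of the atrial markers. Myog and Chrng exceeded it in some libraries only, with means of 0.351 and 0.566 CPM in OGD/R. Of 12 macrophage and osteoclast markers 10 were below 0.5 CPM in every library, with Adgre1, Itgam, Tyrobp and C1qb at 0 counts. Their summed level lay between 18.5 and 19.0 CPM in OGD/R and between 14.5 and 18.05 CPM with phillyrin, nearly all of it Cd14. Of 8 fibroblast markers 2 were below 0.5 CPM and Lum was at 0 counts. The summed level of this list went from between 2364 and 2407 CPM to between 1871 and 2035 CPM. Most of that sum was Col3a1 (1394 ± 26.6 and 1100 ± 67 CPM) and Col1a2 (623 ± 5.89 and 517 ± 6.99 CPM, SD, n = 3 each), both called lower. Pdgfra was also called lower, while Col1a1, Pdgfrb and Dcn were not called. Skeletal myoblast markers summed to between 579 and 596 CPM in OGD/R and to between 518 and 549.7 CPM with phillyrin, with Chrna1, Cdh15 and Myf5 called lower and Myod1 called higher (83.2 ± 2.18 and 97.2 ± 4.09 CPM, SD, n = 3 each). Endothelial markers, with Kdr, Tie1, Cldn5 and Emcn at 0 counts, summed to at most 1.35 CPM in any library. The part of these shifts in the results was not tested, and in bulk samples fewer cells of a type and less RNA per cell cannot be told apart.

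Promoters of 40 of the 44 genes were matched by symbol in RefSeq (build GRCm38.p6), each running from 250 bases before to 50 bases after a start site. Asah1, Ctsb, Ctsh and Galns were not matched. The E-box CACGTG, the core of the CLEAR element and its own reverse complement, was present in at least 1 promoter of 12 of the 40 genes (30.0%). It was present in 11.8% of the 9268 tested genes that had a promoter and in 8.09% of all 27025 genes with one. Of 95 other lysosome genes, those tested and matched from the lists described below, 25.3% had it, so the share was not particular to the members. The longer form TCACGTG, which contains CACGTG and was searched on both strands, was in 25.0% of the matched members and 7.08% of the tested genes. The related motif TCATGTG, searched on both strands and not overlapping CACGTG in its letters, was in 6 of the 40, of which Ctss was not tested. Among tested genes it was in 5 of 37 matched members (13.5%), 12.6% of the 95 other lysosome genes and 2.48% of all. Over all genes with a promoter it was in 4.31%. Promoters of the matched tested members had a median of 13 CG dinucleotides, beside 19 for the other lysosome genes. The median was 21 for all tested genes and 7 for all genes with a promoter. The part of this composition in the motif shares was not tested. The upstream regions of 4 genes are shown because they cover what was seen: Lamp1 with the most E-boxes of those shown, Cln3 with E-boxes and no call, Ctsl with the smallest p-value among the members, and Scarb2 with the related motif alone. Letters run 5′ to 3′ on the strand of the gene and end at the base before the start site, with CACGTG in capitals for Lamp1, Cln3 and Ctsl and TCATGTG or its reverse complement for Scarb2.
Lamp1, plus strand, chr8:13158911-13159160: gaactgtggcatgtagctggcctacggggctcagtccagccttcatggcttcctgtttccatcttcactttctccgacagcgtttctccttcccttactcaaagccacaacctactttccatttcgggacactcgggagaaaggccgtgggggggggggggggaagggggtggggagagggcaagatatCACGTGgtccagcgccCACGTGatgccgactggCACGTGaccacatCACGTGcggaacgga
Cln3, minus strand, chr7:126583237-126583486: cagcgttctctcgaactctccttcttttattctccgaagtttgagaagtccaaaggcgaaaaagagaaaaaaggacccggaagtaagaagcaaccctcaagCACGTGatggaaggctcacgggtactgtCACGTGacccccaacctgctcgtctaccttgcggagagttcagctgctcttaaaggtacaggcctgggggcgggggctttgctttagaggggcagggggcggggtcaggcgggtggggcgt
Ctsl, minus strand, chr13:64370521-64370770: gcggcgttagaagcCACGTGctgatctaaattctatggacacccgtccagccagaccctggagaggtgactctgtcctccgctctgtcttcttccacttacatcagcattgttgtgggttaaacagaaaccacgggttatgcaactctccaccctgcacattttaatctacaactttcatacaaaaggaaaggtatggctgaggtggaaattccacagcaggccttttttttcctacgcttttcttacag
Scarb2, minus strand, chr5:92505658-92505907: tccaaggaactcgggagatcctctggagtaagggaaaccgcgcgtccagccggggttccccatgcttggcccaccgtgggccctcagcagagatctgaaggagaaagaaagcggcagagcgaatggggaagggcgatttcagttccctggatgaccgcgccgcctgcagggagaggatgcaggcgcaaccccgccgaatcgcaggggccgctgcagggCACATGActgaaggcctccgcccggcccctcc
The Lamp1 promoter holds CACGTG at 4 places, which begin 61, 45, 28 and 15 bases before the start site. In the Cln3 promoter shown they begin 149 and 121 bases before it. Another Cln3 promoter, with its upstream region at chr7:126585818-126586067, had 0 matches to CACGTG. In Ctsl the E-box begins 236 bases before the start site, and in Scarb2 the related motif 32 bases before it. A match describes letters in a window and is not evidence of binding.

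Addition of phillyrin was accompanied by small changes that went both ways. Of the 44 genes 41 had enough counts to be tested, and 14 passed the threshold, 9 higher and 5 lower (edgeR's quasi-likelihood test, Benjamini-Hochberg adjusted p under 0.05 over the 11658 genes tested). This is 34.1% of the tested members, close to the 31.7% called among all genes. The 9 higher were Lamp1, Lamp2, Scarb2, Ctsa, Tpp1, Asah1, Npc2, Psap and Grn, against a background of 16.0% of genes higher, and the 5 lower were Ctsl, Gusb, Ppt1, Tfe3 and Mitf, against 15.6% lower. Log2 fold changes, or log2 differences, given throughout as OGD/R with phillyrin minus OGD/R, lay between 0.12 and 0.35 for the higher genes and between -0.36 and -0.17 for the lower ones. Of the 41 tested genes 1, Ctsf, reached 1.5-fold, without passing the threshold, where 5.47% of all tested genes reached it. The median log2 difference of the 41 was 0.03, with -0.01 over all tested genes. Groups did not overlap in CPM for 18 of the 41, 12 higher and 6 lower, where 43.1% of all tested genes did not overlap (21.5% higher and 21.6% lower).

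**Figure D1:**
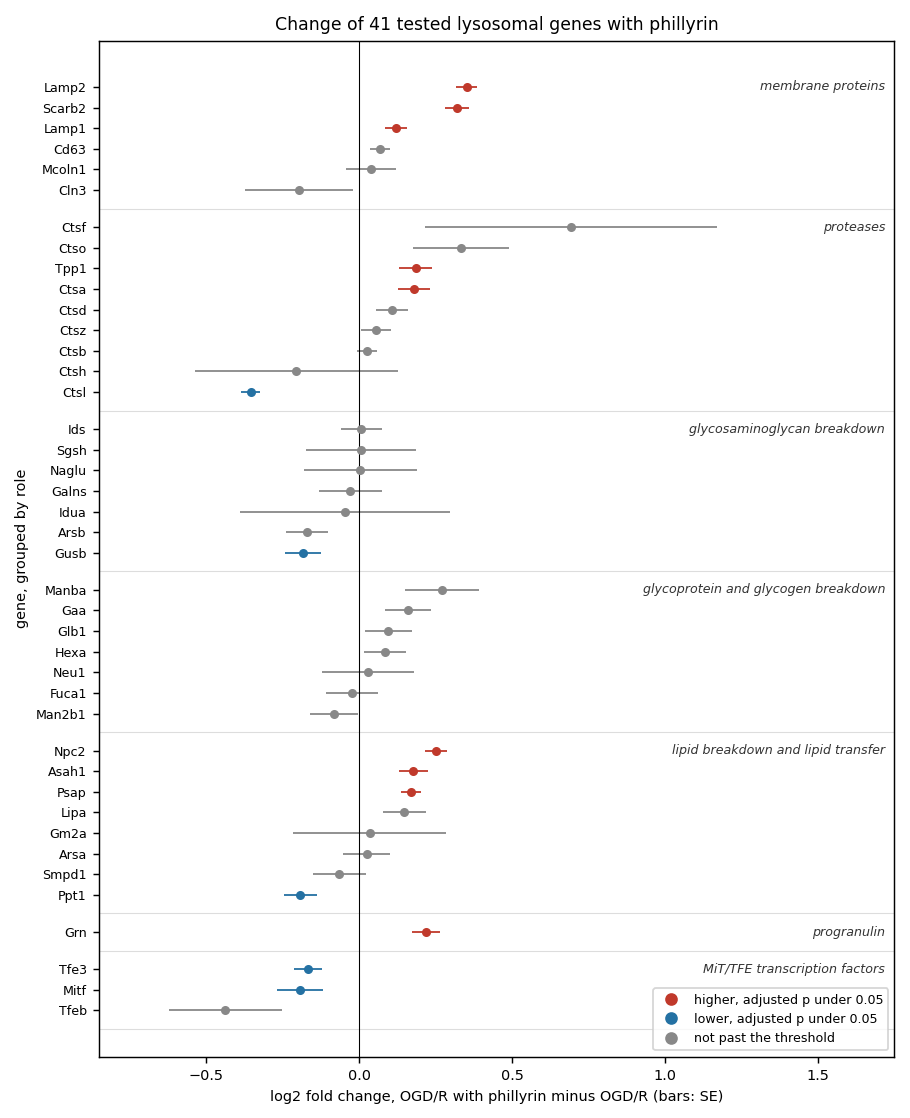
Log2 fold change (horizontal axis, OGD/R with phillyrin minus OGD/R) of the 41 tested lysosomal genes, grouped by role on the vertical axis. Points are edgeR estimates, bars are their standard errors, and colours mark the 9 genes called higher and the 5 called lower. The called changes lie between -0.36 and 0.35, and the wide bars belong to genes of low count such as Ctsf.

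The split depended on scaling and on single libraries. With library size as the sole scaling, 8 members were higher and 7 lower, and over all genes 1313 were higher and 2455 lower in place of 1871 and 1823. Without OGD/R 1 or without phillyrin 1, 3 members were lower in place of 5. Calls stood under all 13 alternatives for 10 members, 7 higher (Lamp2, Scarb2, Tpp1, Asah1, Npc2, Psap and Grn) and 3 lower (Ctsl, Ppt1 and Tfe3).

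Levels per length spanned the whole range of the transcriptome. FPKM values, which divide the count by gene length and library total, ranked Psap first at 278 ± 4.43 FPKM in OGD/R (SD, n = 3), at the percentile 99.3 of the tested genes. Cd63 followed at 208 ± 3.77, Ctsl at 178 ± 0.0663, Lamp1 at 119 ± 0.957, Ctsb at 97.9 ± 0.796, Npc2 at 78.9 ± 1.53 and Ctsz at 66.6 ± 2.65 FPKM (SD, n = 3 each). Each of these 7 stood clear of the next in all 3 OGD/R libraries. From Ctsd at 31.6 FPKM through Grn and Asah1 to Lamp2 at 29.9 FPKM, neighbours overlapped. The lysosome-related transcription factors were of different abundance, with Tfe3 at 12.2 ± 0.424, Mitf at 5.00 ± 0.294 and Tfeb at 0.985 ± 0.259 FPKM. At the low end Ctsh, Idua, Ctsk, Ctsf, Ctss and Ctsc were at 0.322 FPKM or less on average in OGD/R.

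**Figure D2:**
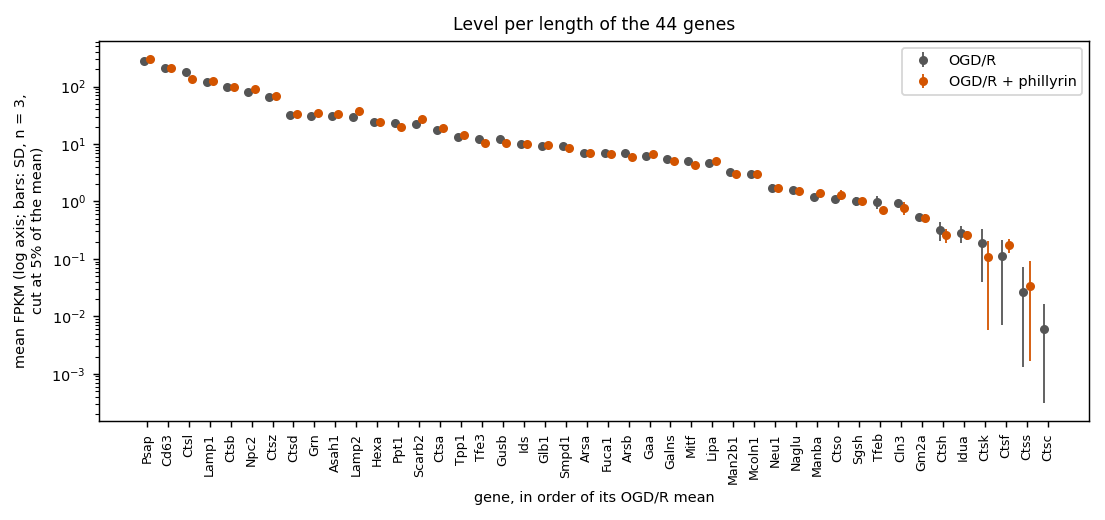
Mean FPKM (vertical log axis) of the 44 genes in order of their OGD/R mean, with OGD/R in grey and OGD/R with phillyrin in orange and bars for the SD over 3 libraries, whose lower ends stop at 5% of the mean. The levels fall from 278 FPKM for Psap to 0.00612 FPKM for Ctsc, which is listed at 0 with phillyrin and has no orange point.

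Calls followed the level. Cut points for this description were chosen after the values had been seen. At a mean of 60 CPM or more over the 6 libraries, 12 of 16 members were called (75.0%, 9 higher and 3 lower). Of all 4022 tested genes at that level 45.9% were called, and these also leaned higher (1244 higher and 602 lower). Between 10 and 60 CPM 2 of 14 members were called, both lower. Of all 4726 tested genes there 29.6% were called, and these leaned lower as well (478 higher and 921 lower). Below 10 CPM 0 of 11 members were called by edgeR, DESeq2 or limma-voom, and 3 had an unadjusted edgeR p under 0.05, while edgeR called 15.4% of all genes there. The median standard error of a log2 difference was 0.04 for members in the upper range and 0.18 for those below 10 CPM, beside 0.05 and 0.23 for all tested genes in the same ranges.

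**Figure D3:**
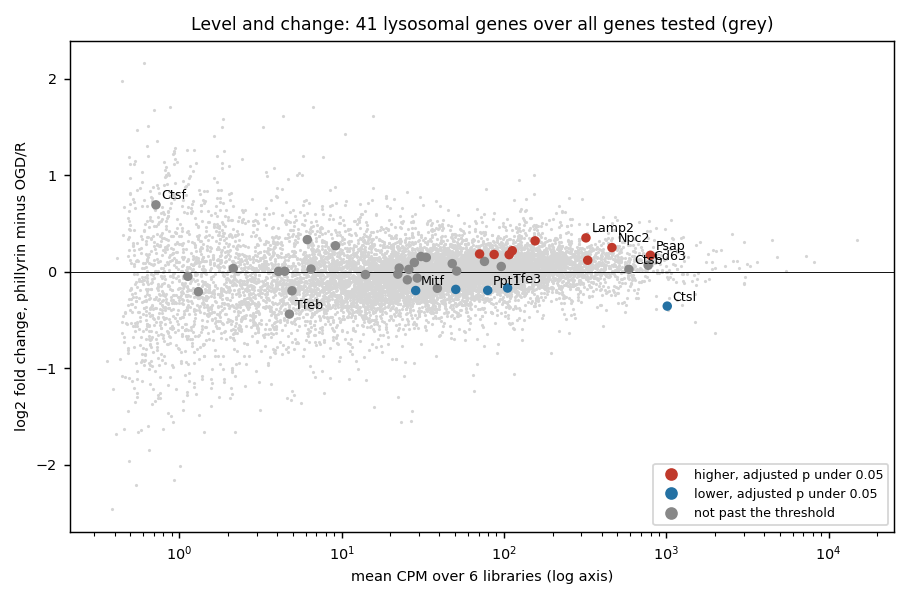
Mean CPM over the 6 libraries (horizontal log axis) against log2 difference (vertical axis), with all tested genes in grey and the 41 tested lysosomal genes coloured by call. All 9 higher members lie above 60 CPM, and Ctsl has the highest mean CPM of the members and the largest decrease among those called.

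Among the membrane proteins 3 of 6 rose, with a median log2 difference of 0.09 over the 6. Lamp2 (ENSMUSG00000016534, GRCm39 chromosome X, 37490234 to 37545331), the glycoprotein needed for fusion of autophagosomes with lysosomes, stood at 272, 283 and 289.9 CPM in OGD/R and at 361, 353 and 363 CPM with phillyrin. All 3 phillyrin libraries were above all 3 OGD/R libraries, and the log2 difference was 0.35 (edgeR adjusted p = 5.40e-10, SE 0.04). Scarb2 (ENSMUSG00000029426, chromosome 5, 92589173 to 92654692), which encodes LIMP-2, the carrier of glucocerebrosidase to the lysosome, stood at 139, 141 and 136 CPM in OGD/R and at 168, 176 and 174 CPM with phillyrin. These groups did not overlap either, and the log2 difference was 0.32 (edgeR adjusted p = 5.82e-08, SE 0.04). Lamp1 (ENSMUSG00000031447, chromosome 8, 13209161 to 13225338), the most used marker protein of the lysosomal membrane, stood at 317, 313 and 315 CPM in OGD/R and at 341, 352 and 332 CPM with phillyrin. The groups were separate but close, with a log2 difference of 0.12 (edgeR adjusted p = 0.00804, SE 0.04). Its call was lost without OGD/R 2 (edgeR adjusted p = 0.0524) and with library size as the sole scaling (0.0891), and Grtp1 overlaps it on the other strand.

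Lamp1 and Lamp2, paralogs of similar structure, were thus at 315 ± 2.04 and 281 ± 9.14 CPM in OGD/R and at 342 ± 9.80 and 359 ± 5.37 CPM with phillyrin (SD, n = 3 each). The difference between their fold changes was not tested. The tetraspanin gene Cd63 stood at 756 ± 15.2 and 791 ± 20.5 CPM, with a log2 difference of 0.07 (edgeR adjusted p = 0.120, SE 0.03). It passed without phillyrin 1 (edgeR adjusted p = 0.0366). The calcium channel gene Mcoln1 (TRPML1) was at 22.3 ± 1.30 and 23.0 ± 0.112 CPM. Cln3, whose loss causes a juvenile neuronal storage disease, was at 5.33 ± 0.550 and 4.58 ± 1.19 CPM (SD, n = 3 each), and neither of these passed.

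Among the called members the largest decrease was that of a protease. Ctsl (ENSMUSG00000021477, chromosome 13, 64507151 to 64518704), the cysteine protease cathepsin L, stood at 1136, 1139 and 1140.1 CPM in OGD/R and at 915, 873 and 881 CPM with phillyrin. The OGD/R libraries lay within a few CPM of each other and all phillyrin libraries were below them, with a log2 difference of -0.36 (edgeR adjusted p = 3.55e-11, SE 0.03). Cathepsin L alone made up 20.3% ± 0.0465 of the summed CPM of the 44 genes in OGD/R and 15.5% ± 0.547 with phillyrin (SD, n = 3 each). The sum over the 12 proteases went from 2046 ± 7.08 to 1837 ± 26.4 CPM. Without Ctsl it went from 907 ± 7.06 to 947 ± 30.3 CPM (SD, n = 3 each). The sum over all 44 genes went from 5601 ± 17.3 to 5743 ± 73.9 CPM, and without Ctsl from 4462.5 ± 16.0 to 4853 ± 90.6 CPM.

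The other cysteine and aspartic cathepsins did not pass. Ctsb (cathepsin B), the next most abundant protease, stood at 579, 582 and 590.2 CPM in OGD/R and at 585, 621 and 576 CPM with phillyrin. These values overlapped, and the log2 difference was 0.03 (edgeR adjusted p = 0.610, SE 0.03). Ctsb overlaps Fdft1 on the other strand. Ctsd (cathepsin D), the main aspartic protease of the lysosome, stood at 73.6, 74.3 and 71.7 CPM in OGD/R and at 78.6, 83.8 and 73.5 CPM with phillyrin. Its log2 difference of 0.11 (edgeR adjusted p = 0.128, SE 0.05) passed without phillyrin 3, at 0.16 (edgeR adjusted p = 0.0247). Gm49369 overlaps Ctsd on the same strand. Ctsz, a carboxypeptidase, was at 94.6 ± 3.55 and 98.1 ± 4.11 CPM (SD, n = 3 each).

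The serine proteases Ctsa and Tpp1 were higher. Ctsa (ENSMUSG00000017760, chromosome 2, 164674793 to 164682952), the carboxypeptidase that protects beta-galactosidase and neuraminidase, stood at 85.1, 77.6 and 82.3 CPM in OGD/R and at 88.2, 92.1 and 97.2 CPM with phillyrin. The log2 difference was 0.18 (edgeR adjusted p = 0.00678, SE 0.05), a call lost without OGD/R 2 (edgeR adjusted p = 0.0760), and Pltp and Neurl2 overlap this gene on the other strand. Tpp1 (ENSMUSG00000030894, chromosome 7, 105394018 to 105401442), the tripeptidyl peptidase, stood at 65.2, 65.4 and 68.4 CPM in OGD/R and at 79.0, 73.4 and 73.6 CPM with phillyrin. Its groups did not overlap, and the log2 difference was 0.18 (edgeR adjusted p = 0.00745, SE 0.05).

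Cathepsins typical of immune cells and osteoclasts were near zero. Ctsc, which activates granule proteases of leukocytes, had 2 counts in OGD/R 3 and 0 in the other libraries. Ctss, of antigen-presenting cells, had 2 counts in OGD/R 3, 2 in phillyrin 3 and 0 elsewhere. Ctsk, the collagenase of osteoclasts, had 24 counts over all 6 libraries. These were the 3 members with too few counts to test, alongside the macrophage and osteoclast markers given above, which were low except for Cd14. Ctsf was at 0.547 ± 0.510 and 0.891 ± 0.253 CPM and Ctsh at 1.43 ± 0.515 and 1.20 ± 0.317 CPM (SD, n = 3 each). Ctso stood at 5.89, 5.11 and 5.47 CPM in OGD/R and at 7.25, 7.90 and 5.29 CPM with phillyrin. None of these 3 passed with all libraries. Ctsf passed without OGD/R 1 (log2 difference 1.76, edgeR adjusted p = 0.0234), and Ctso passed without phillyrin 3 (0.47, edgeR adjusted p = 0.0205).

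**Figure D4:**
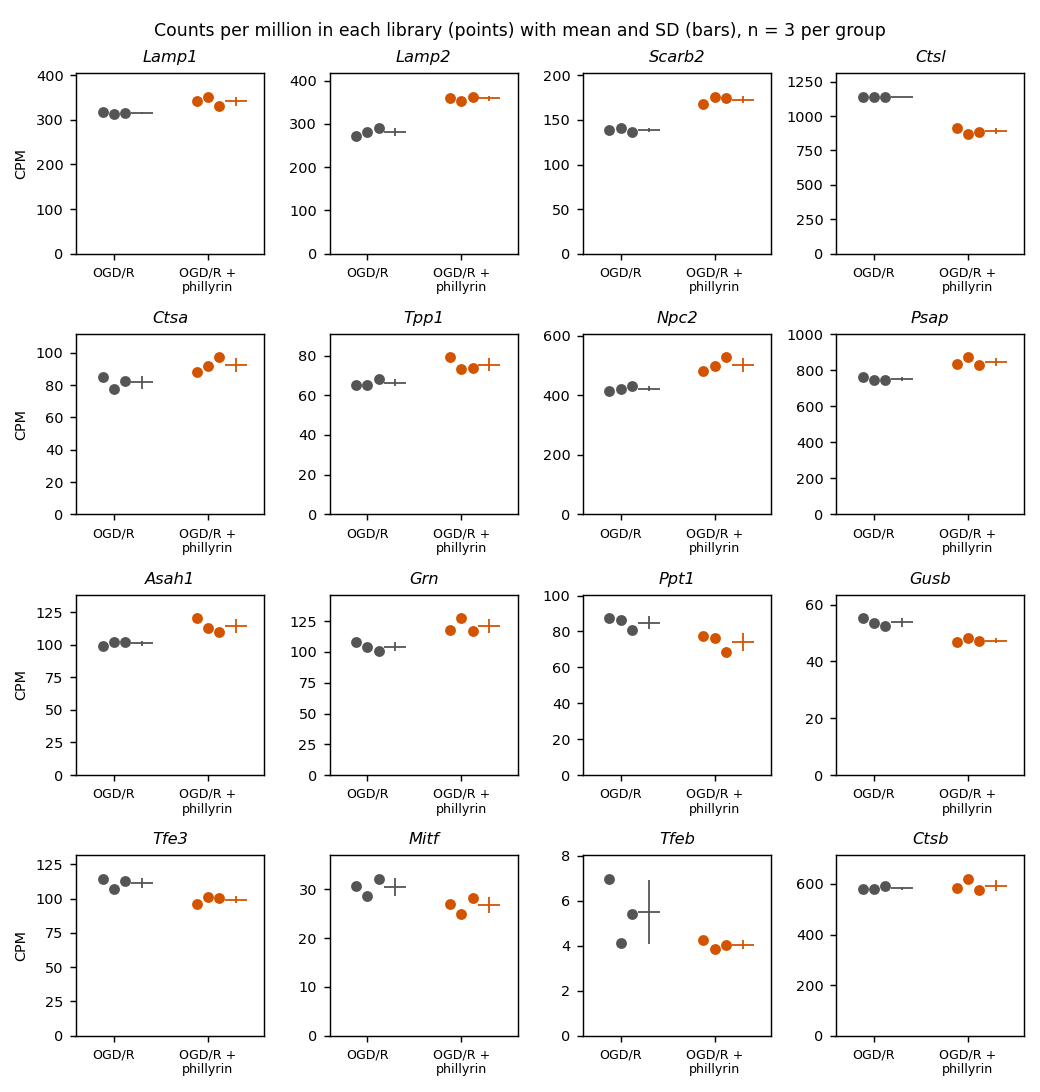
CPM (vertical axes, from 0) of 16 genes in each library, OGD/R in grey and OGD/R with phillyrin in orange, with the mean and SD of 3 libraries beside the points. All phillyrin points lie above the OGD/R points for Lamp2, Scarb2 and Npc2 and below them for Ctsl, and the groups overlap for Ctsb and Tfeb.

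Lipid-handling genes included 3 that rose and 1 that fell of 8, with a median log2 difference of 0.09. Npc2 (ENSMUSG00000021242, chromosome 12, 84801336 to 84819926), the soluble carrier that hands cholesterol to NPC1, stood at 414, 422 and 432 CPM in OGD/R and at 482, 499.8 and 528 CPM with phillyrin. All phillyrin libraries were above all OGD/R libraries, with a log2 difference of 0.25 (edgeR adjusted p = 7.00e-07, SE 0.04). Psap (ENSMUSG00000004207, chromosome 10, 60113449 to 60138376), the precursor of the saposins that present sphingolipids to their hydrolases, stood at 763, 745 and 745 CPM in OGD/R and at 835, 871 and 829.9 CPM with phillyrin. Its groups were also separate, with a log2 difference of 0.17 (edgeR adjusted p = 9.37e-05, SE 0.03). Asah1 (ENSMUSG00000031591, chromosome 8, 41793234 to 41827810), acid ceramidase, stood at 99.1, 102 and 102 CPM in OGD/R and at 121, 113 and 109.6 CPM with phillyrin. The log2 difference was 0.18 (edgeR adjusted p = 0.00298, SE 0.05).

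Ppt1 (ENSMUSG00000028657, chromosome 4, 122730035 to 122752968), the thioesterase that removes palmitate from proteins, went the other way. It stood at 87.4, 86.3 and 80.9 CPM in OGD/R and at 77.3, 76.4 and 68.5 CPM with phillyrin, with a log2 difference of -0.19 (edgeR adjusted p = 0.00545, SE 0.05). Cap1 overlaps Ppt1 on the other strand, and its reads cannot be told apart without strand information. Acid lipase Lipa was at 31.6 ± 1.31 and 35.0 ± 0.199 CPM, groups that did not overlap, with a log2 difference of 0.15 (SE 0.07) that missed the threshold (edgeR adjusted p = 0.101). Arsa, Smpd1 and Gm2a, which act on sulfatide, sphingomyelin and the GM2 ganglioside, had log2 differences between -0.07 and 0.03 and did not pass.

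Progranulin, Grn (ENSMUSG00000034708, chromosome 11, 102321141 to 102327874), a secreted and lysosomal glycoprotein processed to granulins, stood at 108, 104 and 101 CPM in OGD/R and at 118, 128 and 117 CPM with phillyrin. The groups did not overlap, and the log2 difference was 0.22 (edgeR adjusted p = 0.000342, SE 0.05). Fam171a2 overlaps this gene on the other strand.

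Enzymes of glycosaminoglycan breakdown ranged in OGD/R FPKM from percentile 4.79 of the tested genes (Idua) to 64.3 (Gusb), and 1 of 7 fell. Gusb (ENSMUSG00000025534, chromosome 5, 130017852 to 130031890), beta-glucuronidase, stood at 55.3, 53.6 and 52.3 CPM in OGD/R and at 46.7, 48.2 and 47.1 CPM with phillyrin. All phillyrin libraries were below all OGD/R libraries, with a log2 difference of -0.18 (edgeR adjusted p = 0.0157, SE 0.06). The call was lost without OGD/R 1 (edgeR adjusted p = 0.0742) or phillyrin 1 (0.0510). Arsb, arylsulfatase B, stood at 42.0, 39.0 and 42.7 CPM in OGD/R and at 33.9, 37.1 and 38.9 CPM with phillyrin, with a log2 difference of -0.17 (edgeR adjusted p = 0.0522, SE 0.07). It passed without OGD/R 2 (edgeR adjusted p = 0.0454), without phillyrin 3 (0.0284) and with library size as the sole scaling (0.0153). Galns, Naglu, Sgsh, Ids and Idua, deficient in several mucopolysaccharidoses, had log2 differences between -0.05 and 0.01 with standard errors from 0.07 to 0.34.

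Glycoprotein and glycogen breakdown gave no call. Of the 7 enzymes Hexa, Gaa, Glb1, Neu1, Man2b1, Manba and Fuca1, 0 passed with edgeR, 0 with DESeq2 and 0 with limma-voom, while 2 had an unadjusted edgeR p under 0.05. Gaa, the acid alpha-glucosidase that degrades glycogen, was at 29.2 ± 0.648 and 32.4 ± 3.02 CPM (SD, n = 3 each), with a log2 difference of 0.16 (edgeR adjusted p = 0.105, SE 0.07), and passed without phillyrin 3 (0.22, edgeR adjusted p = 0.0287). Manba, beta-mannosidase, was at 8.33 ± 0.195 and 10.0 ± 0.410 CPM, groups that did not overlap, with a log2 difference of 0.27 (edgeR adjusted p = 0.0863, SE 0.12). Hexa, a hexosaminidase gene, was at 46.6 ± 2.70 and 49.5 ± 6.01 CPM (SD, n = 3 each, edgeR adjusted p = 0.383). It and the other 4 enzymes had log2 differences between -0.08 and 0.10, and Tmppe overlaps Glb1 on the same strand.

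The 3 MiT/TFE factors had log2 differences below 0, with a median of -0.19, and 2 of them fell. Tfe3 (ENSMUSG00000000134, chromosome X, 7628799 to 7641441) was the most abundant, at 115, 107 and 113 CPM in OGD/R and at 96.1, 101 and 100.5 CPM with phillyrin. Its groups did not overlap, and the log2 difference was -0.17 (edgeR adjusted p = 0.00451, SE 0.05). Mitf (ENSMUSG00000035158, chromosome 6, 97784013 to 97998310), the melanocyte factor of the family, stood at 30.7, 28.6 and 32.2 CPM in OGD/R and at 27.0, 25.0 and 28.2 CPM with phillyrin. The phillyrin libraries were all below the OGD/R libraries by a small margin, with a log2 difference of -0.19 (SE 0.08) close to the threshold (edgeR adjusted p = 0.0481). That call was lost without OGD/R 1 (edgeR adjusted p = 0.110), OGD/R 3 (0.208), phillyrin 1 (0.0783) or phillyrin 2 (0.226), leaving 1 factor lower. It was also lost with RLE factors (edgeR adjusted p = 0.0559), without a low-count filter (0.0628) and with DESeq2 (adjusted p = 0.133).

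Tfeb (ENSMUSG00000023990, chromosome 17, 48047955 to 48103344), after which the program is named, was rare, at 6.98, 4.10 and 5.42 CPM in OGD/R and at 4.27, 3.84 and 4.04 CPM with phillyrin. The lowest OGD/R library lay among the phillyrin libraries. Its log2 difference was -0.44 (edgeR adjusted p = 0.0661, SE 0.18), and it passed without OGD/R 2 (-0.62, edgeR adjusted p = 0.0172) and with library size as the sole scaling (-0.48, edgeR adjusted p = 0.0466). Of the summed CPM of the 3 factors, Tfe3 held 75.6% ± 0.896 in OGD/R and 76.3% ± 1.27 with phillyrin (SD, n = 3 each). Transcript levels say nothing of the phosphorylation or location of these factors, which were not measured.

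Calls were set against the promoter letters shown above. Of the 12 members with CACGTG 2 were called higher (Lamp1 and Ctsa) and 1 lower (Ctsl). Among all 1093 tested genes with CACGTG, 17.4% were higher and 16.8% lower, beside 15.7% and 15.3% of the 7984 tested genes with neither this motif nor the others searched. Of the 6 members with TCATGTG, 4 were called higher (Ctsa, Grn, Scarb2 and Tpp1), 1 lower (Ppt1) and 1 was not tested (Ctss). Over all 230 tested genes with TCATGTG, 18.3% were higher and 13.0% lower. The promoters of Lamp2, Npc2 and Psap, which rose, held neither CACGTG nor TCATGTG in this window.

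Other genes of the organelle, in 7 lists of 140 genes, had 124 members tested, of which 29 were higher (23.4%) and 9 lower (7.26%), with a median log2 difference of 0.03. Among all tested genes 16.0% were higher and 15.6% lower, with a median of -0.01, and the counts of each list stand beside that background. With library size as the sole scaling, 21 were higher and 17 lower. The V-ATPase, the proton pump that acidifies the lysosome, had 6 of 17 tested subunits higher. Atp6v1g1, a subunit of its peripheral stalk, measured 117 ± 1.46 and 172 ± 6.43 CPM without and with phillyrin (SD, n = 3 per group), a log2 difference of 0.55 (edgeR adjusted p = 3.27e-13, SE 0.04), the largest among the called genes of all these lists. The accessory subunit gene Atp6ap2 went from 114 ± 0.805 to 137 ± 0.972 CPM (edgeR adjusted p = 3.32e-06) and Atp6v1e1 from 73.4 ± 2.36 to 85.1 ± 5.32 CPM (edgeR adjusted p = 0.00188). With edgeR and with DESeq2 0 subunits were lower, and 0 had an unadjusted edgeR p under 0.05 in that direction. With library size as the sole scaling, 1 was.

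Further hydrolases had 7 of 26 higher, and 4 without phillyrin 2. Scpep1, a serine carboxypeptidase, went from 118 ± 1.99 to 149.7 ± 7.03 CPM (edgeR adjusted p = 5.43e-08 for a log2 difference of 0.35, SE 0.04). The glycoprotein gene Creg1 stood between 28.9 and 31.8 CPM in OGD/R and between 40.7 and 42.5 CPM with phillyrin (edgeR adjusted p = 3.01e-06). Further membrane proteins were divided, with 5 of 24 higher and 6 lower and a median of -0.03. Laptm4a went from 439.6 ± 11.2 to 502 ± 20.7 CPM (edgeR adjusted p = 6.23e-05), the sialomucin gene Cd164 from 456 ± 7.17 to 510.1 ± 18.2 CPM (edgeR adjusted p = 0.000327), and the cation channel gene Tpcn2 from 14.7 ± 0.951 to 10.8 ± 0.812 CPM (edgeR adjusted p = 0.00160). Smim38 overlaps Tpcn2 on the same strand.

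Genes that control TFEB through mTORC1, the Ragulator and calcineurin had 6 of 20 higher and 1 lower. Of the 3 with the smallest p-values, 2 encode calcineurin subunits, Ppp3cb (183 ± 4.69 to 219 ± 15.3 CPM, edgeR adjusted p = 1.20e-05 for a log2 difference of 0.25, SE 0.04) and Ppp3r1 (181 ± 4.28 to 203 ± 4.63 CPM, edgeR adjusted p = 0.000981). Dnaaf10 overlaps Ppp3r1 on the same strand. Lamtor2, of the Ragulator, went from 22.9 ± 2.15 to 29.2 ± 0.958 CPM (edgeR adjusted p = 0.000799). The lower gene, Mtor, had a log2 difference of -0.15 (edgeR adjusted p = 0.0442, SE 0.06), and 0 genes of this list were lower with DESeq2, with RLE factors or without a low-count filter, or when any library but OGD/R 2 was left out. With library size as the sole scaling, 3 were lower. Mtor was named after its value had been seen, and Angptl7 overlaps it on the other strand.

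Mannose 6-phosphate tagging and sorting had 2 of 16 higher and 2 lower. The clathrin adaptor subunit genes Ap1b1 (104 to 110.0 CPM in OGD/R and 86.8 to 91.8 CPM with phillyrin, edgeR adjusted p = 3.71e-05) and Ap1s1 (123 ± 4.17 to 109 ± 4.30 CPM, edgeR adjusted p = 0.00203) fell. The retromer gene Vps35 (antisense to part of Orc6) rose from 216 ± 7.56 to 244 ± 6.60 CPM (edgeR adjusted p = 0.000502). Those higher numbered 1 without OGD/R 1, OGD/R 2, phillyrin 1 or phillyrin 3, and with library size as the sole scaling. Fusion and positioning had 2 of 18 higher, Arl8b (123 ± 3.05 to 140.0 ± 8.06 CPM, edgeR adjusted p = 0.00156) and Stx8 (20.4 to 22.9 CPM in OGD/R and 24.2 to 28.4 CPM with phillyrin, edgeR adjusted p = 0.0134). The call of Stx8 was lost without OGD/R 1 (edgeR adjusted p = 0.0650), OGD/R 3 (0.0569) or phillyrin 2 (0.139). Vps18 had a log2 difference of -0.19 (edgeR adjusted p = 0.0789, SE 0.08) and passed without phillyrin 2 (edgeR adjusted p = 0.0178) or with library size as the sole scaling (0.0351).

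Of the cystatins, inhibitors of cysteine cathepsins, 1 of 3 tested was higher. Cstb went from 67.4 ± 1.93 to 74.1 ± 0.928 CPM (SD, n = 3 each; edgeR adjusted p = 0.0418 for a log2 difference of 0.14, SE 0.05). Leaving out any library except phillyrin 3 ended that call (edgeR adjusted p between 0.0621 and 0.171), as did DESeq2 (adjusted p = 0.0563), the replicate block (edgeR adjusted p = 0.0521) and library size as the sole scaling (edgeR adjusted p = 0.171). Cst3 was at 66.4 ± 1.00 and 65.1 ± 9.95 CPM and Cst6 at 28.3 ± 0.793 and 25.5 ± 0.470 CPM (SD, n = 3 each), and neither passed.

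**Figure D5:**
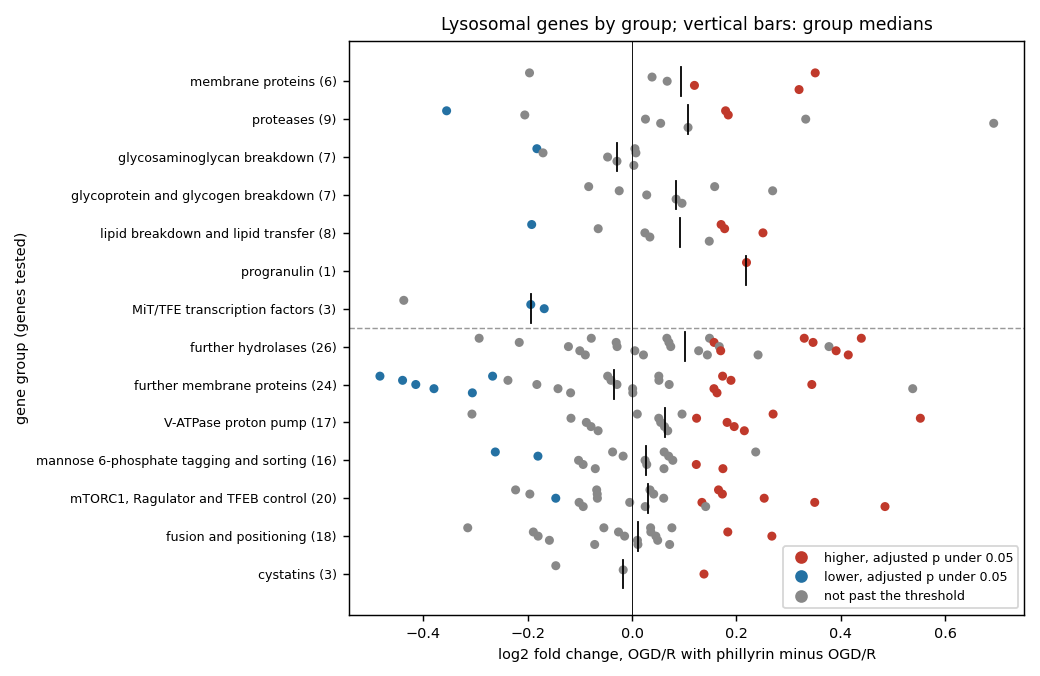
Log2 fold change (horizontal axis) of each tested gene by group (vertical axis, with the number tested), the 7 role groups above the dashed line and the 7 other lists below it. Points are genes coloured by call and vertical bars are group medians, which lie between -0.19 for the MiT/TFE factors and 0.22 for the single gene Grn.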

How the data were processed

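HISAT2 2.2.1, featureCounts 2.0.3, Trimmomatic 0.39 and DESeq2 1.34.0 are named per the submitters' processing notes, with build GRCm39. What each did, the annotation release, the strand setting and the handling of multiply aligned reads: not given in the sources used here. Antisense and nearly identical genes may therefore share reads, and 10 members overlap a gene on the other strand. Per the file headers, the authors deposited counts of reads together with FPKM for each gene in each library. Deposited FPKM values equalled count over length and library total to within a relative difference of 2.43e-07 and served only to compare levels between genes. Sample titles decided which column belongs to which library, since the description gives 1 column name to all 3 phillyrin libraries.

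Counts were filtered with filterByExpr, scaled with TMM factors and tested for the 11658 genes passing with edgeR's two-sided quasi-likelihood test (edgeR 4.0.16, limma 3.58.1, DESeq2 1.42.0, R 4.3.3), adjusted by Benjamini-Hochberg over all of them, at 0.05. CPM used TMM-scaled library sizes. In simulated counts for this comparison (11658 genes, 200 changed) 67.9% of 1.25-fold, 87.3% of 1.5-fold and 93.8% of 2-fold changes were recovered, with 10 false of 173 calls. The data gave 3694 calls, far more than the genes changed in the simulation, so recovery in the data may differ. No called member reached 1.5-fold. For 3 against 3, exact permutation of 1 gene's values cannot give p below 0.1. No label states separate cultures for the libraries, so p-values rest on a spread that may be technical, and all 6 carry the same batch label. Intervals and limits for 0 counts cover counting error only.

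Every member was described. Values in every library were given for the 16 members with the smallest p and for Lamp1, Lamp2, Ctsb, Ctsd, Ctsl, Psap, Grn, Tfeb, Tfe3 and Mitf, and up to 3 genes with the smallest p were named from each other list. Members and lists were chosen with earlier results of these data known. Vamp7, of the other lists, was not analysed here. A gene that this rule names in the further hydrolases is not reported here. Alternatives were RLE factors, library size as the sole scaling, no filter on low counts, a mean of at least 1 CPM, DESeq2, limma-voom, a replicate block and omission of each library.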

Additional observations from a re-analysis of the deposited data

How the results depend on the processing

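Under 13 alternatives each of the 14 called members kept its direction. With library size as the sole scaling, the median log2 fold change of the tested members went from 0.03 to -0.0089 (from -0.01 to -0.06 over all tested genes), and 17 other lysosome genes were lower in place of 9. When each library was left out in turn, members higher numbered 7 to 12 and lower 3 to 7, other lysosome genes 21 to 27 and 7 to 9, and all genes 1434 to 1899 and 1412 to 1668. With the replicate number as a block, 9 members were higher and 5 lower, other lysosome genes 28 and 9, and all genes 1867 and 1842. Deviations of same-numbered libraries correlated at 0.0028, 0.0056 and 0.0032 (Pearson's r across genes, which are not independent replicates). These values cannot decide whether same-numbered libraries were paired, because each was near 0 and yet the highest value for its library. Below 10 CPM standard errors had a median of 0.18 for members and 0.23 for all tested genes, and the part of depth in the calls there was not tested. With a mean of at least 1 CPM required, Ctsf was not tested.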
